A study of Arabidopsis thaliana with 7 samples.

Results

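ERDJ3B (AT3G62600), CRT2 (AT1G09210) and BZIP60 (AT1G42990), Arabidopsis thaliana genes that serve protein folding in the lumen of the endoplasmic reticulum (ER), were followed in leaves after a spray of salicylic acid (SA), a plant hormone that switches on defence against pathogens. They were chosen by gene symbol or locus, with earlier results of these data known. Each had 1 probe set that named it alone, so 3 of the 22746 probe sets of the array table describe them. RefSeq lists AT1G09210 under the symbol CRT1b and AT3G62600 under ATERDJ3B.

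The ER is where proteins bound for the cell surface, the apoplast and the vacuole are folded. ERDJ3B encodes a J-domain protein that serves as a co-chaperone of the ER Hsp70 BiP, and in Arabidopsis it is needed for the accumulation of the immune receptor EFR. CRT2 encodes a calreticulin, a calcium-binding lectin chaperone that holds glycoproteins while they fold. BZIP60 encodes a membrane-anchored transcription factor of the unfolded protein response. The ER stress sensor IRE1 splices its mRNA, which gives a form that enters the nucleus and raises the transcription of chaperone genes. Many proteins of SA defence are secreted and so pass through the ER.

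Mature leaves of ecotype Col-0 plants aged 3.5 weeks and grown in a photoperiod of 12 h were measured on 7 Affymetrix ATH1 arrays, on which a group of short probes, the probe set, reads each transcript. The groups were untreated leaves taken before the spray (1 array), leaves harvested 6 h or 12 h after a spray of 0.02% Silwet, a wetting agent (1 array each), and leaves harvested 3, 6, 12 or 24 h after a spray of 0.5 mM SA in 0.02% Silwet (1 array each). Each array held RNA from the pooled leaves of a few wild-type plants, and no condition and time had a second array. Values are log2 expression values made by the authors with RMA, in which 1 unit is a 2-fold difference.

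The array medians lay between 7.01 and 7.08, and any pair of arrays correlated at 0.897 to 0.974 across probe sets. Of 16 leaf markers 1 had a named probe set, the Rubisco activase gene RCA, which read between 13.70 and 14.22. Of 5 root and seed markers the root beta-glucosidase gene PYK10 alone had one, at 4.20 to 5.46. UGT76B1, whose product conjugates SA, read 4.80 to 5.68 in the control arrays and 11.33 to 13.34 in the SA arrays. The excess of the 3′ over the 5′ GAPDH control probe set, a sign of RNA integrity, ranged from 0.57 to 1.78, and the 25S rRNA control read 13.43 and 12.44 in the Silwet and SA arrays at 12 h against 8.20 to 10.30 in the others.

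The first question was how much of each transcript the leaves held in every condition. ERDJ3B, the BiP co-chaperone gene, read 9.32 in untreated leaves, 10.67 and 9.39 in Silwet leaves at 6 h and 12 h, and then 12.22, 13.08, 11.66 and 11.38 in SA leaves at 3, 6, 12 and 24 h. Every SA array lay above every control array, and the lowest SA array, that of 24 h, stood 0.71 above the highest control array, Silwet at 6 h. Of all probe sets 9.77% showed such a separation upwards. Within the SA arm the transcript was highest at 6 h. In the order of the 7 arrays, the steps from SA 6 h to SA 3 h (0.86) and from Silwet 6 h to Silwet 12 h (1.28) were larger than the SD of the gene within the arms, 0.75, and the other 4 steps were not.

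CRT2, the calreticulin gene, read 9.71 in untreated leaves, 10.65 (6 h) and 8.78 (12 h) in Silwet leaves, while SA leaves read 11.49, 12.75, 10.61 and 11.12 at 3, 6, 12 and 24 h. The arms overlapped by a small margin, since SA at 12 h lay 0.04 below Silwet at 6 h. As for ERDJ3B, the highest array was SA at 6 h and the highest control array was Silwet at 6 h. The step down from SA 6 h to SA 3 h was 1.26, above the within-arm SD of 0.92, and the step of 0.93 between untreated leaves and Silwet 12 h was about equal to it.

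BZIP60, the transcription factor gene, had another order. It read 11.12 in untreated leaves, 9.21 (6 h) and 9.38 (12 h) in Silwet leaves, while SA leaves read 11.94, 10.98, 11.16 and 10.46 at 3, 6, 12 and 24 h. Untreated leaves thus lay inside the range of the SA arrays, and both Silwet arrays lay below every other array. The gap between the SA array at 24 h and the Silwet array at 12 h, 1.08, was the one step in the order above the within-arm SD of 0.82. The spliced and unspliced forms of the BZIP60 mRNA were not told apart here.

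**Figure D1:**
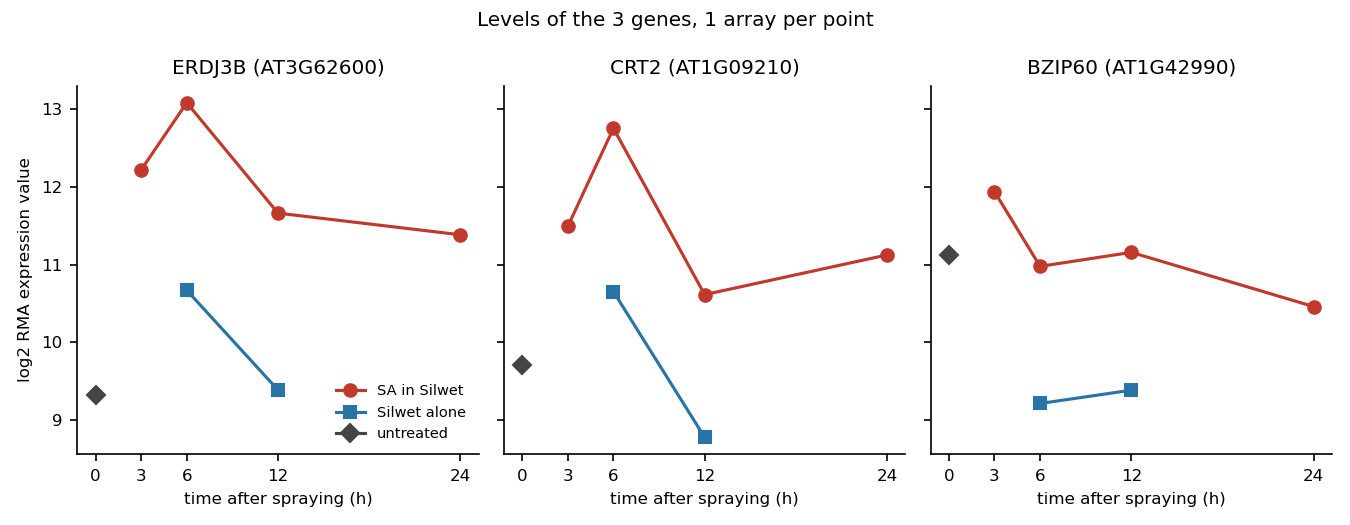
Log2 RMA expression value (vertical axis) against hours after spraying (horizontal axis) for ERDJ3B, CRT2 and BZIP60, with 1 array per point: SA in Silwet (red circles), Silwet alone (blue squares) and untreated leaves (grey diamond). The SA line lies above the Silwet line at 6 h and 12 h in all 3 panels, and only for BZIP60 is the untreated array, at 11.12, as high as the SA arrays.

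SA leaves were next compared with Silwet leaves of the same hour, in a pair of arrays at 6 h and another at 12 h that share no array. All 3 genes were at least 2-fold higher with SA at both times. At 6 h ERDJ3B was higher by 2.41 (5.32-fold), CRT2 by 2.101 (4.29-fold) and BZIP60 by 1.76 (3.396-fold), where 10.3% of all probe sets were at least 2-fold higher. At 12 h the differences were 2.28 (4.84-fold), 1.84 (3.57-fold) and 1.77 (3.42-fold), where 7.44% of all probe sets were at least 2-fold higher. Each gene's difference moved little from one time to the other, by less than its within-arm SD. Single arrays give no p-value for these differences. The 3′ excess of the GAPDH control was 1.78 with Silwet and 0.62 with SA in the 6 h pair, and 1.41 and 1.49 in the 12 h pair. That of the actin control was 2.39 and 2.48 in the 6 h pair, and 1.84 and 2.44 in the 12 h pair. The part of RNA integrity in the gene differences was not tested.

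The steady difference stood on a changing level for the chaperone genes. The level of ERDJ3B at 12 h minus that at 6 h was -1.28 in Silwet leaves and -1.42 in SA leaves. For CRT2 it was -1.88 in Silwet leaves and -2.14 in SA leaves, and 0.791% and 0.475% of all probe sets were lower still over that interval. Both genes were therefore at least 2-fold lower at 12 h in both arms, as were 3.58% of all probe sets in Silwet and 3.65% in SA. Both 12 h arrays also stood apart in the 25S rRNA control, at 13.43 and 12.44 against 8.20 and 9.41 in the Silwet and SA arrays at 6 h, and its part in these differences was not tested. BZIP60 stayed at its level, with differences of 0.17 in Silwet and 0.18 in SA over the same interval. In the SA arm ERDJ3B and CRT2 were higher at 6 h than at 3 h, by 0.86 and 1.26, whereas BZIP60 differed by -0.96.

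The spray without SA was compared with untreated leaves. At 6 h ERDJ3B was higher in Silwet leaves by 1.35 and CRT2 by 0.94, so 1 of the 3 genes was at least 2-fold higher, beside 4.49% of all probe sets. BZIP60 differed by -1.91, 3.76-fold lower in Silwet leaves, where 5.71% of all probe sets were at least 2-fold lower. At 12 h ERDJ3B stood 0.07 from the untreated level, CRT2 differed by -0.93 and BZIP60 by -1.74 (3.34-fold lower), where 6.12% of all probe sets were at least 2-fold lower. These differences hold the spray, the hours since it and the time of day together, which cannot be told apart.

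Times with no Silwet array were set against untreated leaves. At 3 h ERDJ3B was higher with SA by 2.90 (7.48-fold) and CRT2 by 1.78 (3.44-fold), while BZIP60 was higher by 0.82 (1.76-fold). Thus 2 of the 3 genes passed 2-fold, as did 8.18% of all probe sets. At 24 h, which shares its time of day with the untreated array, ERDJ3B was higher by 2.07 (4.19-fold) and CRT2 by 1.41 (2.67-fold). BZIP60 differed by -0.66. Again 2 of 3 genes were at least 2-fold higher, beside 4.45% of all probe sets, and 1.01% of all probe sets were higher than ERDJ3B in that comparison.

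For BZIP60 the choice of control changed the sign of the SA difference at 6 h and 24 h, but not at 3 h or 12 h. Against untreated leaves, SA at 6 h and 12 h gave -0.15 and 0.03 for this gene. For ERDJ3B the same comparisons gave 3.77 and 2.35, and for CRT2 3.04 and 0.90. ERDJ3B was therefore above untreated leaves by more than 2-fold in all 4 SA arrays and CRT2 in 3 of them, while BZIP60 was so in none. All 4 comparisons share the 1 untreated array. The 95th percentile of all probe sets against untreated leaves was 1.72 at 6 h and 1.52 at 12 h, so 2-fold lay below it. Against the mean of both Silwet arrays, BZIP60 was higher with SA at 3 h by 2.64 and at 24 h by 1.16.

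**Figure D2:**
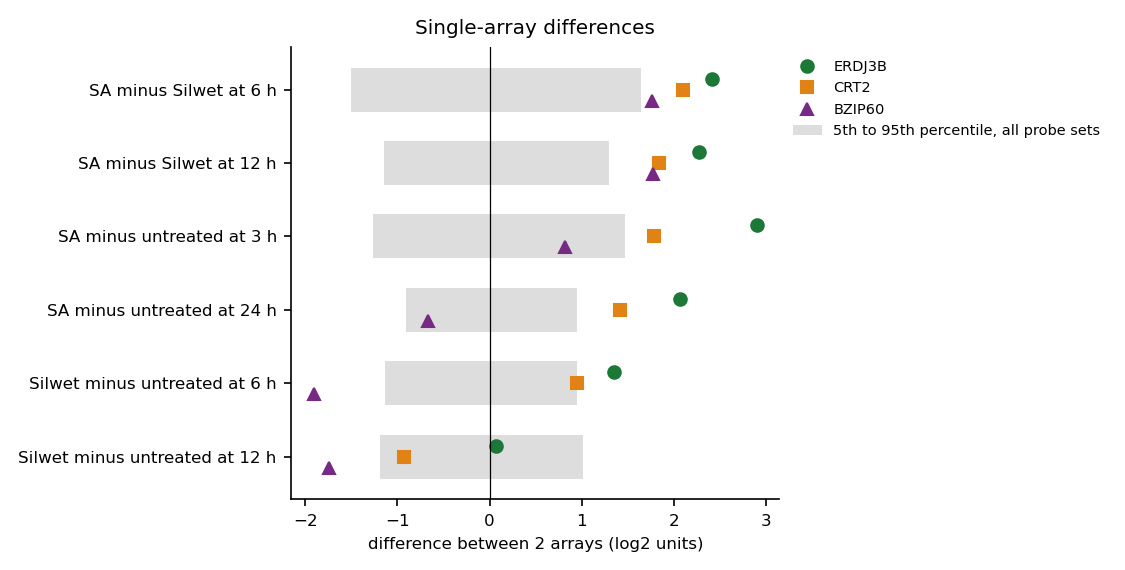
Differences between 2 arrays in log2 units (horizontal axis) for 6 comparisons (vertical axis), with ERDJ3B as circles, CRT2 as squares and BZIP60 as triangles, and a grey bar for the 5th to 95th percentile of all 22746 probe sets. All 3 genes lie right of the bar in both comparisons of SA with Silwet, and BZIP60 lies left of it, at -1.91 and -1.74, in the comparisons of Silwet with untreated leaves.

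The 4 SA arrays were then set against the 3 control arrays in limma, fitted to all 22746 probe sets with p-values adjusted by Benjamini-Hochberg. Its error term is the variation among the arrays of an arm, which differ in time and in the plants pooled, and in the control arm also in the spray; these sources cannot be told apart. ERDJ3B averaged 9.79 ± 0.76 (SD, n = 3) over the control arrays and 12.09 ± 0.75 (SD, n = 4) over the SA arrays, 4.91-fold higher with SA (log2 difference 2.30, SE 0.50, limma adjusted p = 0.0657). CRT2 averaged 9.71 ± 0.94 and 11.50 ± 0.91, 3.44-fold higher with SA (1.78, SE 0.60, limma adjusted p = 0.153). BZIP60 averaged 9.91 ± 1.06 and 11.13 ± 0.61, 2.34-fold higher with SA (1.23, SE 0.54, limma adjusted p = 0.246).

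None of the 3 genes passed the adjusted threshold of 0.05, beside 1.35% of all probe sets called higher and 0.382% called lower. ERDJ3B and CRT2 had an unadjusted p under 0.05 as higher, as had 10.4% of all probe sets. The 95% interval of the difference ran from 1.13 to 3.46 for ERDJ3B, from 0.37 to 3.19 for CRT2 and from -0.04 to 2.49 for BZIP60. Without the untreated array, the highest control array for BZIP60, the difference of that gene was 1.83 (SE 0.41, limma adjusted p = 0.0982).

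Fits with time as a block gave smaller errors for ERDJ3B and CRT2. With the time of day as a block, ERDJ3B differed by 2.25 (SE 0.17, limma adjusted p = 0.0379) and CRT2 by 1.78 (SE 0.21, limma adjusted p = 0.0475). SA at 3 h, the highest array of BZIP60, was alone at its time of day and so did not enter these differences. SA at 24 h was paired with untreated leaves, which had no spray. BZIP60 differed by 0.96 (SE 0.56, limma adjusted p = 0.349) in the same fit, where 1.17% of all probe sets were called higher. With the 2 pairs at 6 h and 12 h alone and time as a block, all 3 genes passed as higher, beside 2.9% of all probe sets. The differences were then 2.34 (SE 0.20) for ERDJ3B, 1.97 (SE 0.22) for CRT2 and 1.77 (SE 0.21) for BZIP60, with adjusted p-values in limma of 0.0367, 0.0409 and 0.0445. That fit has 1 residual degree of freedom and the blocked fit 2, against 5 in the fit of all arrays. Over 14 other fits the adjusted p ran from 0.0367 to 0.192 for ERDJ3B, from 0.0409 to 0.345 for CRT2 and from 0.0445 to 0.498 for BZIP60. Among the fits that leave out 1 array, the one without SA 24 h gave a call, for ERDJ3B (2.53, SE 0.50, limma adjusted p = 0.0434). That fit called 826 of the 22746 probe sets higher, against 308 in the fit of all arrays.

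**Figure D3:**
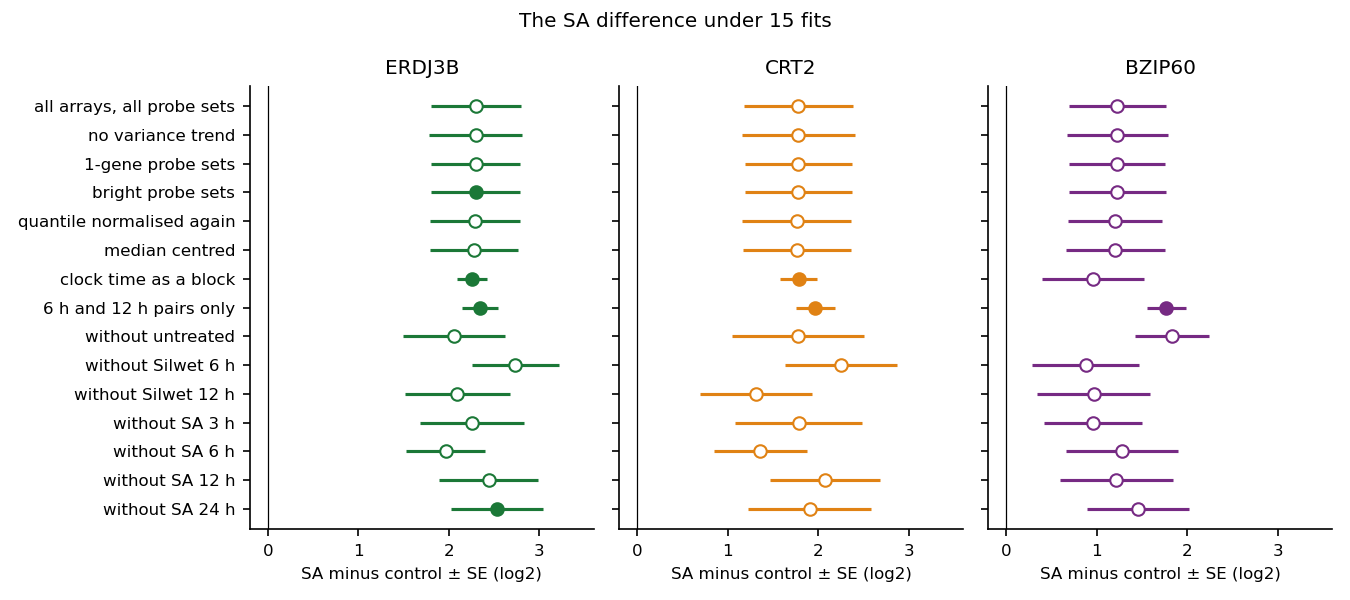
Difference between SA and control arrays in log2 units, with its SE as a bar (horizontal axis), under the fit of all arrays and 14 alternatives (vertical axis), in a panel for each gene. Filled points have a limma adjusted p under 0.05; every point lies above 0, and 4 fits are filled for ERDJ3B, 2 for CRT2 and 1 for BZIP60.

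Whether other genes of the ER pathway moved with these 3 was read from 6 lists given by locus. The lists, too, were chosen with earlier results of these data known. Of 75 listed genes 21 had a probe set that named them alone, and BiP, the calnexin gene CNX1, IRE1A and most disulfide isomerase genes are not analysed here. RefSeq carries 10 of the 21 under the locus alone, and these are given by locus. In the fit of all arrays 1 of the 21 was called higher and 0 lower, beside 1.35% and 0.382% of all probe sets, and 18 were higher on average and 3 lower. The median difference was 0.67, against -0.03 over all probe sets. Of the 21, 12 had an unadjusted p under 0.05, all of them higher with SA, and 10 (47.6%) had every SA array above every control array, beside 10.4% and 9.77% of all probe sets.

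In the Hsp70 and Hsp90 chaperone list 0 of 2 measured genes passed limma's adjusted threshold, and 1 had an unadjusted p under 0.05. The shares of all probe sets, as higher, were 1.35% and 10.4%. ERDJ2B, a J-domain protein gene like ERDJ3B, read 8.30 untreated, 8.38 and 7.86 with Silwet, and 9.74, 9.91, 9.17 and 8.91 with SA at 3, 6, 12 and 24 h. All SA arrays were above all control arrays for this gene, and the difference was 1.25 (SE 0.30, limma adjusted p = 0.0799). ERDJ2A, its paralogue, differed by 0.22 (SE 0.33). The 1 measured disulfide isomerase gene, PDIL5-1, differed by 0.07 (SE 0.29, unadjusted p = 0.828 in limma).

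In the list of the lectin chaperone cycle and N-glycosylation 0 of 3 passed, and 2 had an unadjusted p under 0.05. Beside these stood 1.35% and 10.4% of all probe sets as higher. AT5G07340 differed by 1.45 (SE 0.50), AT2G01720 by 0.61 (SE 0.25) and AT1G76400 by -0.10 (SE 0.23). With the time of day as a block, AT5G07340 passed at 1.44 (SE 0.17, limma adjusted p = 0.0478). Among probe sets annotated to 1 gene, its profile was the nearest to that of CRT2.

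Among sensors and factors of the unfolded protein response 0 of 4 passed, and 2 had an unadjusted p under 0.05. Beside these stood 1.35% and 10.4% of all probe sets as higher. BZIP28 and BZIP17 encode membrane-anchored factors that are released by proteolysis when unfolded proteins build up. BZIP28 read 8.86, 8.71 and 8.81 in the untreated and Silwet arrays and 9.79, 9.58, 9.72 and 9.41 in the SA arrays at 3, 6, 12 and 24 h. Silwet minus untreated leaves was -0.15 at 6 h and -0.06 at 12 h for this gene, against -1.91 and -1.74 for BZIP60. It differed by 0.83 (SE 0.18, limma adjusted p = 0.0673) and BZIP17 by 0.82 (SE 0.23, limma adjusted p = 0.11). BZIP28 passed in the fits without the variance trend (0.0322), of bright probe sets alone (0.0477) and without SA 24 h (limma adjusted p = 0.0471). These fits called 348 of 22746, 452 of 11373 and 826 of 22746 probe sets higher, against 308 of 22746 in the fit of all arrays. Without SA 24 h, 5 of the 21 list genes were called higher. Besides BZIP28 they were ERDJ2B (0.0422), AT2G34250 (0.0443), AT3G60540 (0.0185) and AT1G29310 (limma adjusted p = 0.0146). In the 6 h and 12 h pairs alone AT3G60540 (0.0375) and AT1G29310 (limma adjusted p = 0.0434) passed. For both factor genes every SA array lay above every control array. The gene of the site-1 protease, S1P, which cleaves such factors, differed by -0.15 (SE 0.30), and AT4G20310 by -0.34 (SE 0.20).

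In the list of ER-associated degradation, the removal of misfolded proteins, 0 of 4 passed, and 2 had an unadjusted p under 0.05. Beside these stood 1.35% and 10.4% of all probe sets as higher. The derlin gene DER1 differed by 1.22 (SE 0.30, limma adjusted p = 0.0819) on its brighter probe set and by 0.0035 on a second one that read 3.52 to 3.77, far below the array medians and with 1 value, 3.68, in all 3 control arrays. OS9, a lectin gene of the pathway, differed by 0.93 (SE 0.32), and the derlin genes DER2.1 and DER2.2 by 0.07 and 0.02.

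In the list of ER translocation and retrieval 1 of 7 was called higher, beside 1.35% of all probe sets. AT3G60540 read 7.53 untreated, 8.44 and 7.28 with Silwet at 6 h and 12 h, and 10.58, 10.89, 10.06 and 9.29 with SA at 3, 6, 12 and 24 h. Every SA array was above every control array, and the gene rose by 2.46 (SE 0.45, limma adjusted p = 0.0487). The call was absent in every fit that leaves out 1 array except SA 24 h, in the fit of the probe sets annotated to 1 gene (0.0505) and in that without the variance trend (limma adjusted p = 0.0548). AT1G29310 differed by 1.45 (SE 0.48), AT3G48570 by 0.98 (SE 0.25) on its brighter probe set and 0.80 (SE 0.31) on the other, AT2G34250 by 0.84 (SE 0.20) and SEC31B, a COPII coat gene, by 0.67 (SE 0.25). AT5G60460 (0.06) and AT1G78720 (0.03) lay near 0.

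At a matched time 8 of the 21 genes (38.1%) were at least 2-fold higher with SA at 6 h and 5 (23.8%) at 12 h, beside the shares of all probe sets of 10.3% and 7.44%. The median differences were 0.83 and 0.69, against -0.05 and -0.03 over all probe sets. Against untreated leaves 7 of the 21 (33.3%) passed 2-fold at 3 h and 3 (14.3%) at 24 h, beside 8.18% and 4.45% of all probe sets. The lists share their arrays with the 3 genes, so these counts are a description of the same leaves.

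**Figure D4:**
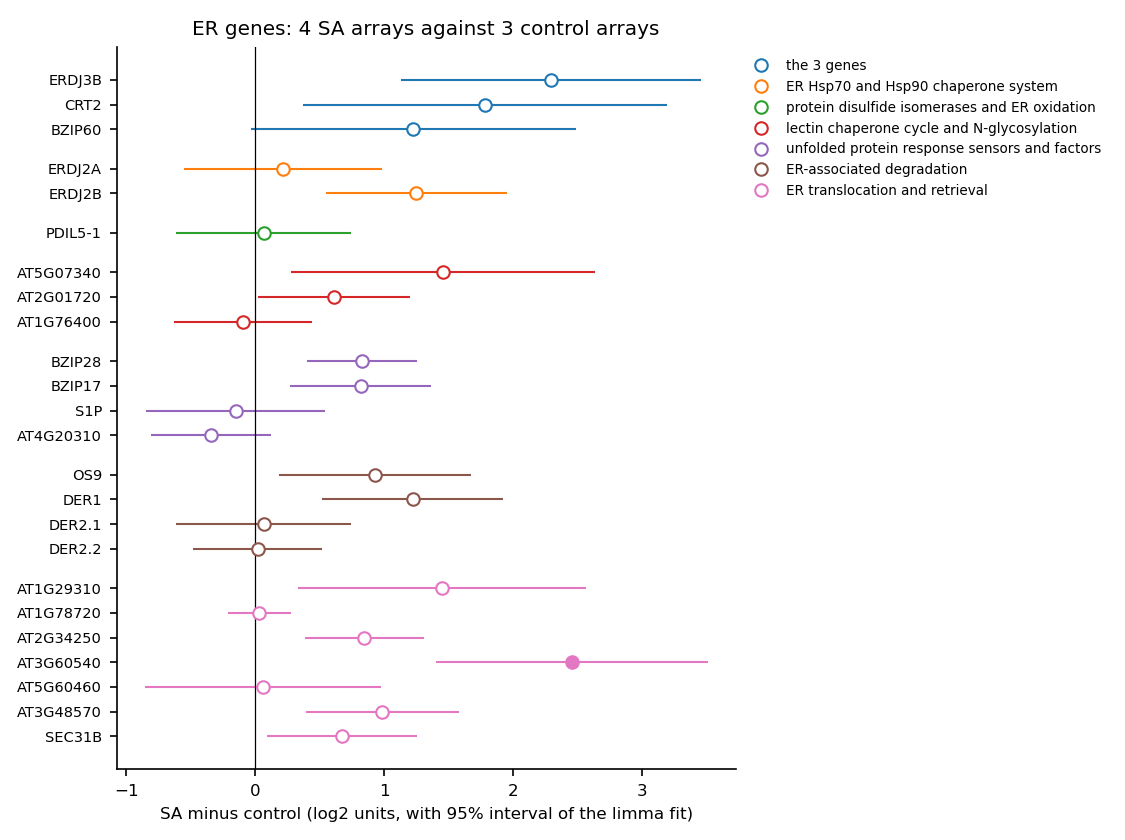
SA minus control in log2 units with the 95% interval of the limma fit (horizontal axis) for ERDJ3B, CRT2, BZIP60 and the 21 measured genes of 6 ER lists (vertical axis, coloured by list; genes without a RefSeq name by locus). The filled point, AT3G60540 at 2.46, is the 1 gene with a limma adjusted p under 0.05; 18 of the 21 list genes lie above 0.

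Folding outside the ER was read from 4 co-chaperone genes of the cytosol. At 6 h all 4 were at least 2-fold higher with SA than with Silwet, as the 3 ER genes were, beside 10.3% of all probe sets. At 12 h SA minus Silwet was -3.11 for HOP3 and -1.54 for FES1A, and 1.08 for HOP2 and 0.88 for ROF2. Silwet minus untreated leaves at 12 h was 3.84 for HOP3, 2.48 for FES1A, -0.76 for HOP2 and -1.83 for ROF2. With SA at 12 h HOP3 read 4.81 and FES1A 8.48, against 4.08 and 7.54 in untreated leaves. ROF2 read 5.80 untreated, 6.49 and 3.98 with Silwet at 6 h and 12 h, and 4.86 with SA at 12 h. These values lay below the array medians. So did HOP3 at 4.08 untreated, 4.78 with Silwet at 6 h and 4.81 with SA at 12 h. In the limma fit of all arrays 0 of the 4 passed and 2 had an unadjusted p under 0.05 as higher, beside 1.35% and 10.4% of all probe sets, with differences of 1.23 (HOP2), 1.27 (HOP3), 2.18 (FES1A) and 3.38 (ROF2). The difference in course between the ER and cytosolic genes rests on single arrays and was not tested.

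The profiles over the 7 arrays were compared by the root mean square (RMS) difference between 2 probe sets after each was centred on its own mean, a description in log2 units over 7 arrays. ERDJ3B and CRT2 lay 0.44 apart. Among the 13512 other probe sets annotated to 1 gene, 11 were nearer than CRT2 to ERDJ3B and 3 were nearer than ERDJ3B to CRT2. BZIP60 lay 1.15 from ERDJ3B and 1.097 from CRT2. Of the 13512, 1883 and 2256 probe sets were nearer to these genes than it was. Counted from BZIP60, 10858 were nearer to it than ERDJ3B was and 10261 were nearer than CRT2. The profile of BZIP60 was thus less like those of the chaperone genes than these were like each other. All 3 were higher with SA than with Silwet at both matched times.

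Nearest to ERDJ3B were AT3G60540 (RMS difference 0.25), AT4G16660 (0.25), AT3G43510 (0.32), which RefSeq lists as a pseudogene, and AT4G29520 (0.34). AT3G60540 is the gene called above in the translocation list. Nearest to CRT2 were AT5G07340 (0.32), of the lectin chaperone list, AT3G03440 (0.39), AT4G16660 (0.40) and ERDJ3B itself (0.44). Thus 2 of these profiles, the 4 nearest to each chaperone gene, belonged to genes of the ER lists. AT4G16660 was near to both chaperone genes. The lists held 21 measured genes, and 13512 other probe sets were compared with each chaperone gene. Whether the lists were over-represented among the nearest profiles was not tested, and they were chosen with earlier results of these data known.

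Nearest to BZIP60 were VPS60.1 (RMS difference 0.22), of an ESCRT-related family in vesicle sorting, AT4G29950 (0.24), AT4G25390 (0.25) and AT3G53270 (0.26). VPS60.1 read 8.52 untreated, 7.12 and 7.46 with Silwet at 6 h and 12 h, and 9.86, 9.09, 8.98 and 8.32 with SA at 3, 6, 12 and 24 h. It shared with BZIP60 the low Silwet arrays and the highest level at 3 h of SA. Because it was picked by nearness over these same 7 arrays, this likeness is not a separate result. None of the 4 is on the ER lists.

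**Figure D5:**
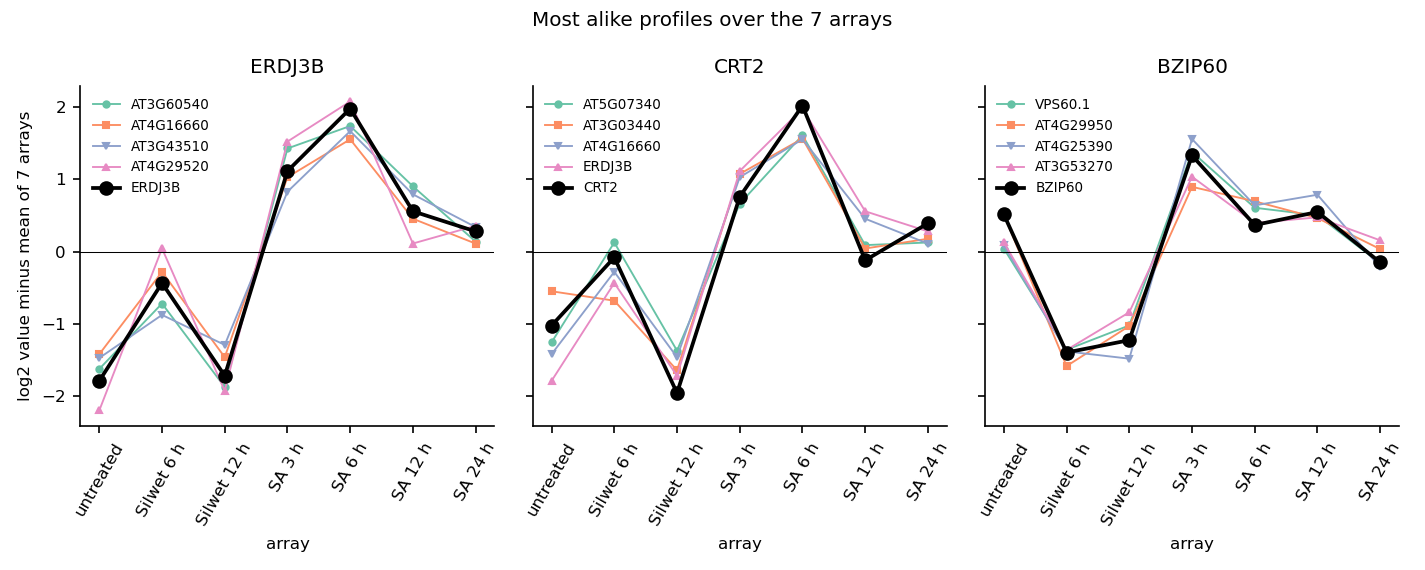
Log2 value minus the probe set's mean of 7 arrays (vertical axis) in each array (horizontal axis) for ERDJ3B, CRT2 and BZIP60 (black) and the 4 most alike profiles of other genes (coloured). The chaperone genes and their neighbours peak in SA at 6 h, while BZIP60 and its neighbours are lowest in both Silwet arrays and highest in SA at 3 h. The neighbours were picked by likeness over these same arrays.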

How the data were processed

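The values of the 7 arrays were deposited by the authors on the log2 scale; the submitters' processing notes name RMA and affy, with versions not given in the sources used here. RMA equalises the distributions of the arrays, which hides a shift common to most transcripts and shrinks differences at the dim end. The number of arrays limits the precision. Of 22810 probe sets, 64 controls of the array maker were left out. Genes came from the platform annotation, in which 13513 probe sets name 1 gene, matched to RefSeq TAIR10.1 for 13484. No genome build goes with the array values, so no coordinates are given, and promoters and proteins are not analysed here.

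SA and control arrays were compared with limma 3.58.1 in R 4.3.3 (lmFit, eBayes with a trended prior, two-sided, Benjamini-Hochberg over all probe sets, threshold 0.05), tested on simulated data. Single-array differences carry no p-value and were read against the share of probe sets past 2-fold. The 3 genes and the ER lists were chosen with earlier results of these data known. Named were all probe sets of the 3 genes, the measured list members, the 4 nearest profiles of each gene, and UGT76B1 as a check of treatment. Alternatives covered the variance prior, the probe sets tested, the scaling, the time of day, the control arrays and leaving out each array.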

Additional observations from a re-analysis of the deposited data

Results flagged for a closer look

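For CRT2 the spray without SA went in opposite directions at its 2 times. Silwet minus untreated leaves was 0.94 at 6 h and -0.93 at 12 h, each from 1 array, and the difference between the times was not tested. For BZIP60 the same held for SA against untreated leaves, at 0.82 after 3 h and -0.66 after 24 h, again with 1 array each and no test. Both values lay inside the 5th to 95th percentile of all probe sets, -1.27 to 1.47 at 3 h and -0.91 to 0.95 at 24 h. The CRT2 values lay inside theirs too, -1.13 to 0.946 at 6 h and -1.19 to 1.02 at 12 h. The SA arm of none of the 3 genes held an array far from the others by Dixon's criterion for 4 samples, with the ratio of gap to range at 0.508 for ERDJ3B, 0.59 for CRT2 and 0.528 for BZIP60.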

How the results depend on the processing

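The difference between SA and control arrays stayed above 0 for ERDJ3B, CRT2 and BZIP60 in all 14 alternative fits, but its side of the threshold depended on the fit. ERDJ3B passed among bright probe sets alone (2.30), with the time of day as a block (2.25) in the 6 h and 12 h pairs alone (2.34) and without SA 24 h (2.53). CRT2 passed with that block (1.78) and in the pairs (1.97), and BZIP60 in the pairs (1.77). The bright-only fit tests fewer probe sets, as does the fit of probe sets annotated to 1 gene. ERDJ3B did not pass in the latter (limma adjusted p = 0.0687). The cause of these differences between fits was not tested. Leaving out 1 array at a time gave 1.96 to 2.74 for ERDJ3B, 1.31 to 2.25 for CRT2 and 0.88 to 1.83 for BZIP60. Over all probe sets 395 were called, against 180 among probe sets annotated to 1 gene, 599 among bright ones, 1045 in the pairs and 26 (without Silwet 12 h) to 1321 (without SA 24 h) when 1 array was left out. Of the 21 other ER genes 1 was called higher, against 0 among 1-gene probe sets, 2 of 20 among bright ones, 2 with the time-of-day block, 2 in the pairs and 0 to 5 when 1 array was left out (5 without SA 24 h, 0 without any other); these counts were added after seeing the data. With untreated in place of Silwet leaves, the SA difference at 6 h became 3.77 for ERDJ3B, 3.04 for CRT2 and -0.15 for BZIP60, and at 12 h 0.90 for CRT2 and 0.034 for BZIP60. With the mean of both Silwet arrays in place of untreated leaves, BZIP60 moved to 2.64 at 3 h and 1.16 at 24 h. Quantile normalisation again and centring on the median moved no single-array difference by more than the within-arm SD. Arrays could be paired by harvest time alone, as in the 6 h and 12 h pairs, since the labels give no replicate numbers.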
